A study of Mus musculus with 8 samples.

Results

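Contacts that the chromosomes of B cells made with themselves across 100 kb to 1 Mb were followed from activation to the eve of the first division. The autosomes of the mouse genome (build GRCm38) were divided into 48088 bins of about 50 kb whose borders fall on cut sites of MboI, the restriction enzyme of the Hi-C protocol. All pairs of bins on the same autosome (cis pairs) lying 2 to 20 bins apart were taken, which gave 908872 of 64704547 autosomal cis bin pairs, or 1.40% of them. Pairs were taken by their distance, with no value of their contacts in the rule. The range itself was chosen with earlier results of these data known. After 756 bins were left out for undetermined sequence or for coverage far above or below the median, 887478 of these bin pairs had both bins kept. Of the 908872 bin pairs, 109 received no read pair in any library.

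The measurements were in situ Hi-C libraries, in which DNA ends that lie close together in the fixed nucleus are ligated and sequenced as read pairs. Splenic B cells of C57BL/6 mice, activated in culture with lipopolysaccharide (LPS), were sorted at 3 h, at 10 h, and at 33 h as undivided CD69+ cells with the highest CellTrace Violet dye (imminent division). The remaining group, pre-S, also taken at 33 h, came from FUCCI transgenic mice and was gated as mAG- mKO2hi. The paper describes pre-S as imminently dividing cells in G1, and the imminent division group, sorted without that gate, as the bulk. Both are thus of the same hour, and "before division" below refers to the bulk group. The paper describes its mice as males on a C57BL/6 Pep3b background. Mouse line, gate and cell cycle state thus differ together in comparisons with pre-S and cannot be told apart. Each group held 2 libraries called replicates 1 and 2, and all p-values measure the spread between these 8 libraries. The sequenced read pairs carry no molecular identifiers, and Hi-C counts hold no RNA by which the labelled cell type could be checked.

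The libraries held 88703088 to 218945191 read pairs, of which 70.9 to 75.1% of autosomal pairs were cis. The second imminent division library differed from the others in its sex chromosomes, with 3.74% of read ends on X and 0.0490% on Y. The other libraries had 2.39 to 2.84% on X and 0.0804 to 0.123% on Y. Whether this library differs in sex from the males that the paper describes was not tested, and only autosomes were used below. Contrasts with 10 h share the same pair of 10 h libraries, and both contrasts of imminent division share its libraries, so they are not independent of each other.

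Within this distance range the chromatin fiber is folded into loops and topologically associating domains. Cohesin, a ring-shaped complex, is thought to extrude loops until it meets the DNA-binding protein CTCF or is released by Wapl, while condensin compacts chromosomes for mitosis. The fall of contact frequency with distance is therefore a common summary of chromosome folding.

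The bins of these data are built from the fragments between neighboring GATC sites, the recognition sequence of MboI. Bases around the first site of 4 bins are printed as examples of the borders on which the contact map rests, chosen because these bins are named in the results below. GATC is in capitals, bases run 5′ to 3′ on the plus strand, and positions and letters are those of GRCm38.

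Ebf1, chr11:44599966-44600025: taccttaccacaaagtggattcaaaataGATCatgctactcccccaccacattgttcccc
Pax5, chr4:44699804-44699863: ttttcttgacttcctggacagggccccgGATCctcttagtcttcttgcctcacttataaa
Smc2, chr4:52400321-52400380: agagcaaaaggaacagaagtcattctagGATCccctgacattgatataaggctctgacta
Trp63, chr16:25649898-25649957: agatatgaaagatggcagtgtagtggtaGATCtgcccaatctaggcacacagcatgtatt

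The Ebf1 bin spans positions 44599994 to 44649762 with 112 GATC sites, and the Pax5 bin spans 44699832 to 44749970 with 127. The Smc2 bin (52400349 to 52449863) holds 147 sites and the Trp63 bin (25649926 to 25699903) holds 130. Each of these bins contains the start of the gene it is named for, so the value given for a gene is that of the 50 kb around its start.

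The share of autosomal cis read pairs that fell at 100 kb to 1 Mb was highest in imminent division cells. It was 21.6 and 21.5% in the 3 h libraries, 23.0 and 22.8% in the 10 h libraries, 29.3 and 29.1% in the imminent division libraries, and 24.1 and 23.7% in the pre-S libraries. No group overlapped another. The means were 21.5% ± 0.0651 at 3 h, 22.9% ± 0.131 at 10 h, 29.2% ± 0.127 in imminent division cells and 23.9% ± 0.257 in pre-S (SD, n = 2 each). An exact permutation test over the 8 libraries gave p = 0.00952 for a difference among groups, the smallest that this design allows, and 0.0381 after Benjamini-Hochberg adjustment over 4 measures. The design holds too few libraries for an exact test of any single pair of groups to pass 5%. As a share of all autosomal read pairs, cis or not, the means were 15.9% ± 0.181, 17.1% ± 0.179, 20.7% ± 0.158 and 17.4% ± 0.539 in the same order. On that scale pre-S differed from 10 h by less than the pre-S SD. The exact permutation test over groups gave p = 0.0190 (0.0381 adjusted).

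The rise before division covered the range from end to end. Between 10 h and imminent division the share of pairs 2 to 5 bins apart went from 11.2 to 14.1%, that of 6 to 10 bins from 5.88 to 7.77%, and that of 11 to 20 bins from 5.81 to 7.33%. Outside the range the shares moved less or the other way. Pairs within 1 bin of each other went from 21.1 to 19.7%, those 21 to 39 bins apart from 5.32 to 6.08%, those 40 to 200 bins apart from 13.7 to 13.4%, and those farther apart from 36.9 to 31.7%. In pre-S the corresponding shares at 2 to 5, 6 to 10 and 11 to 20 bins were 11.5, 6.16 and 6.23%, nearer to 10 h than to imminent division.

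**Figure D1:**
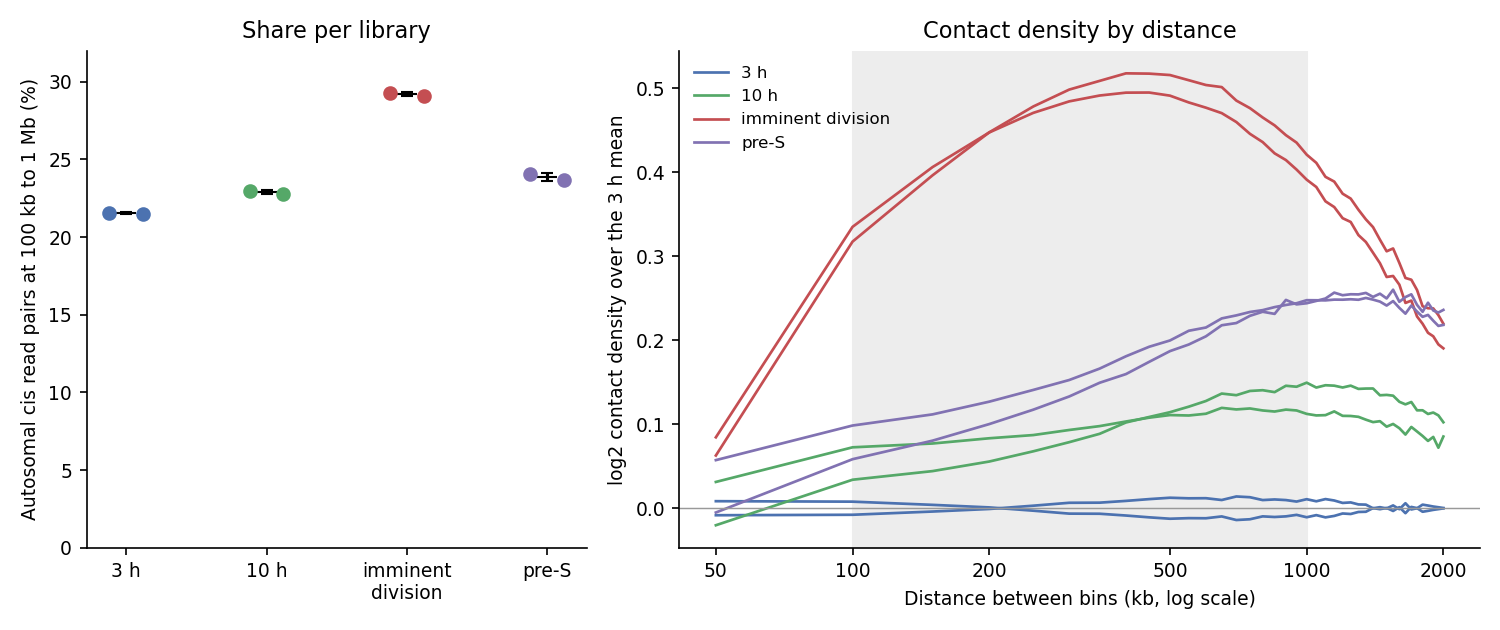
Left, percentage of autosomal cis read pairs 2 to 20 bins apart in each library (points), with the group mean and SD (black, n = 2); right, log2 contact density of each library (lines) over the 3 h mean, against distance in kb on a log axis with the range shaded. The imminent division libraries sit at 29.3 and 29.1%, and their curves are arched while those of pre-S climb to the end of the range.

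The gain in imminent division cells was uneven over distance. Relative to 10 h, contact density (contacts per bin pair, scaled to the autosomal cis total of the library) was 0.27 higher on the log2 scale at 100 kb, 0.41 higher at 350 kb, and 0.28 higher at 1000 kb, where the gain had fallen back to its value at the short end. At 1950 kb, outside the range, the difference was 0.12. Against pre-S the same libraries were 0.25 higher at 100 kb, 0.35 higher at 300 kb and 0.16 higher at 1000 kb, while at 1950 kb the difference was −0.01 and the libraries overlapped. At each of the 19 distances in the range, both imminent division libraries lay above both libraries of 10 h and of pre-S. The 19 distances make up the share above and come from the same libraries, so this is a description and no further test.

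The earlier step and the pre-S group had another shape, with differences that were larger at 1000 than at 100 kb. From 3 h to 10 h the log2 difference was 0.05 at 100 kb, 0.13 at 1000 kb and 0.09 at 1950 kb. Pre-S against 10 h went from 0.03 at 100 kb, where the libraries overlapped, to 0.11 at 1000 kb and 0.13 at 1950 kb. Thus imminent division differed most in the middle of the range, and pre-S at its far end and beyond.

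The decay slope, fitted to log contacts against log distance over 2 to 20 bins, was close to −1 in all libraries. It was −1.03 and −1.04 at 3 h, −1.02 and −0.998 at 10 h, −1.02 and −1.03 in imminent division cells, and −0.99 and −0.98 in pre-S. The pre-S libraries had the flattest slopes and did not overlap the rest, whereas the 10 h and imminent division libraries overlapped. The exact permutation test gave p = 0.0381, and 0.0508 after adjustment over the 4 measures, so the slope did not pass. A single slope hides the bend before division: over 2 to 5 bins the mean slopes were −0.936 at 3 h, −0.918 at 10 h, −0.823 in imminent division cells and −0.898 in pre-S, whereas over 10 to 20 bins they were −1.11, −1.09, −1.21 and −1.06. Imminent division was therefore the flattest group at the short end and the steepest at the long end.

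The gain before division was found on every autosome. Counts were summed by autosome and by distance into strata and tested with limma on log2 counts scaled to the autosomal cis total, with Benjamini-Hochberg adjustment over all 3819 strata up to 200 bins and a 5% threshold. Between 10 h and imminent division 361 of 361 strata in the range were higher (19 autosomes by 19 distances), where 63.7% of all strata were called, 23.9% higher and 39.8% lower. Against pre-S, imminent division was likewise higher in 361 of 361, where 55.7% of all strata were called, 13.9% higher and 41.8% lower. The median log2 differences within the range were 0.36 and 0.28, against −0.05 and −0.06 over all strata. When counts were scaled to the total within the range instead, 103 strata were higher and 97 lower from 10 h to imminent division, and 85 higher and 137 lower against pre-S, a scaling that balances the strata of the range by construction.

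Between 3 h and 10 h, 333 of 361 strata in the range were higher and 0 lower by limma, with 354 at an unadjusted p under 0.05, and scaled to the total within the range 47 were higher and 3 lower. In that contrast 27.0% of all strata were called, 23.9% higher and 3.04% lower. The median difference was 0.11 on the log2 scale. From 10 h to pre-S 244 strata were higher and 6 lower (median 0.08; 106 and 52 when scaled to the total within the range), where 50.4% of all were called, 35.9% higher and 14.5% lower. The 6 lower strata all lay on autosome 11, and autosome 19 had none called. When each autosome was scaled to its own cis total, a choice made after seeing the data, 305 strata were higher and 0 lower in pre-S, and autosome 11 was higher at 19 of 19 distances with a median of 0.11.

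**Figure D2:**
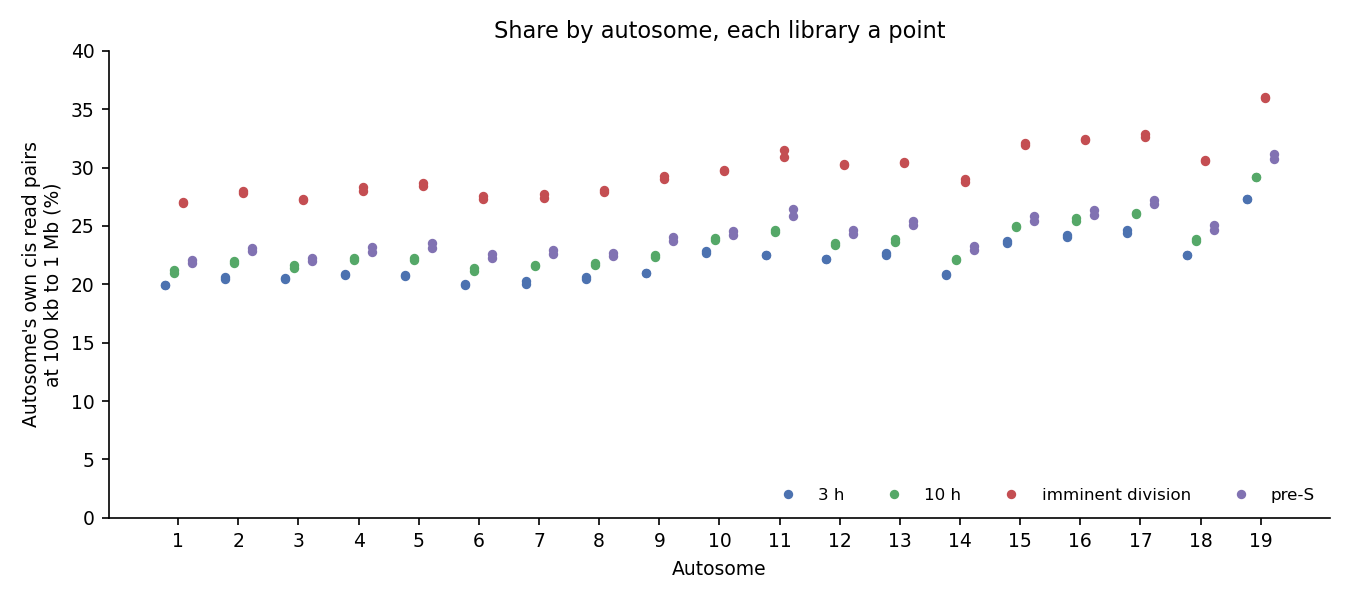
Percentage of each autosome's own cis read pairs that lie 2 to 20 bins apart, by group (points are libraries, 2 per group), for the 19 autosomes. Autosome 1 has the lowest and autosome 19 the highest share in every group, and imminent division is the highest group on all 19.

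Autosomes differed from each other as much as groups did. Autosome 1, the longest, had the lowest share of its own cis pairs in the range, at 19.9% at 3 h, 21.1% at 10 h, 27.0% in imminent division cells and 21.9% in pre-S. Autosome 19, the shortest, had the highest, at 27.3, 29.2, 36.0 and 30.9%. Shorter chromosomes have fewer long-distance pairs to count, and across the 19 autosomes the share correlated with the number of bins at r = −0.84, −0.83, −0.87 and −0.83 in the 4 groups. These 19 points come from the same libraries and are given as a description.

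How much the autosomes differed in the gain before division depended on the measure. The increase in the share of an autosome's own cis pairs from 10 h to imminent division ran from 5.70 percentage points on autosome 3 to 7.04 on autosome 15, whereas the median log2 difference over strata, scaled to the genome-wide cis total, ran from 0.24 on autosome 11 to 0.44 on autosome 3. Between 3 h and 10 h the increase ran from 1.02 on autosome 3 to 2.04 on autosome 11, and from 10 h to pre-S from 0.539 on autosome 10 to 1.71 on autosome 19. The early increase was larger on gene-rich autosomes (r = 0.77 with protein-coding starts per Mb, n = 19 autosomes), whereas the gain before division had r = −0.03 with starts per Mb and −0.78 with the number of bins. Measured instead as contact density scaled to the genome-wide cis total, the same gain had r = −0.73 with starts per Mb and 0.06 with the number of bins.

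The decay was steeper on gene-rich autosomes in all groups. Autosome 13 had the flattest slopes, −0.97 at 3 h, −0.95 at 10 h, −0.97 in imminent division cells and −0.92 in pre-S. Autosome 11, which is gene-rich, had the steepest, −1.12, −1.08, −1.11 and −1.05. Over the 19 autosomes the slope correlated with protein-coding starts per Mb at r = −0.82, −0.80, −0.86 and −0.82 in the 4 groups, again over points that share libraries.

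Bin pairs were then sorted by how many of the 20807 autosomal protein-coding genes of GENCODE vM21 start in their 2 bins. No gene starts in 56.4% of them. Contacts in each class were divided by the number expected for the same distance over all bin pairs of the library. Pairs with 5 or more starts were above expectation in each group, at 1.48 at 3 h, 1.52 at 10 h, 1.26 in imminent division cells and 1.31 in pre-S. Pairs with no start were below it, at 0.868, 0.860, 0.912 and 0.916. The excess of gene-dense pairs was largest at short distances, at 1.62 over 2 to 5 bins and 1.32 over 11 to 20 bins at 10 h, and in imminent division cells the latter was 1.03.

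The ratio of gene-dense to gene-free contacts was lower in both groups at 33 h. It was 1.80 and 1.61 at 3 h, 1.77 and 1.75 at 10 h, 1.35 and 1.42 in imminent division cells, and 1.41 and 1.46 in pre-S. Libraries at 33 h did not overlap those at 3 and 10 h, although the exact permutation test over all 4 groups gave p = 0.0762 both before and after adjustment. Single bins with 5 or more starts made more contacts with other chromosomes than bins with no start. Their relative coverage (contacts with other chromosomes over the mean of all bins) was 1.36 to 1.55 against 0.856 to 0.924. Their median GC content was 49.7% against 40.4%, with 126 and 123 MboI fragments per bin. These are values of single bins, whereas a pair in the ratio may reach 5 starts over its 2 bins.

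Dividing by coverage changed the order of these groups. The coverage-adjusted ratio was 0.687 and 0.704 at 3 h, 0.780 and 0.792 at 10 h, 0.657 and 0.612 in imminent division cells, and 0.790 and 0.771 in pre-S, and the exact permutation test gave p = 0.0190 (0.0381 adjusted). On this scale gene-dense pairs lay below gene-free pairs in all 8 libraries, imminent division was the lowest group, and pre-S overlapped 10 h. Whether a gene-dense pair is said to hold more or fewer contacts than a gene-free pair thus rests on the coverage of its bins, while the drop from 10 h to imminent division was seen on both scales.

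Contacts fell faster with distance between gene-dense bins than between gene-free bins in all 8 libraries. The difference of the decay slopes was −0.251 and −0.264 at 3 h, −0.219 and −0.195 at 10 h, −0.293 and −0.278 in imminent division cells, and −0.224 and −0.218 in pre-S. It was largest before division, and the 10 h and pre-S libraries overlapped. The exact permutation test among groups gave p = 0.0190, adjusted p = 0.0381. The call was lost with starts of all genes (adjusted exact p = 0.0508) and without any of 4 of the 8 libraries (0.0508 to 0.0571).

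**Figure D3:**
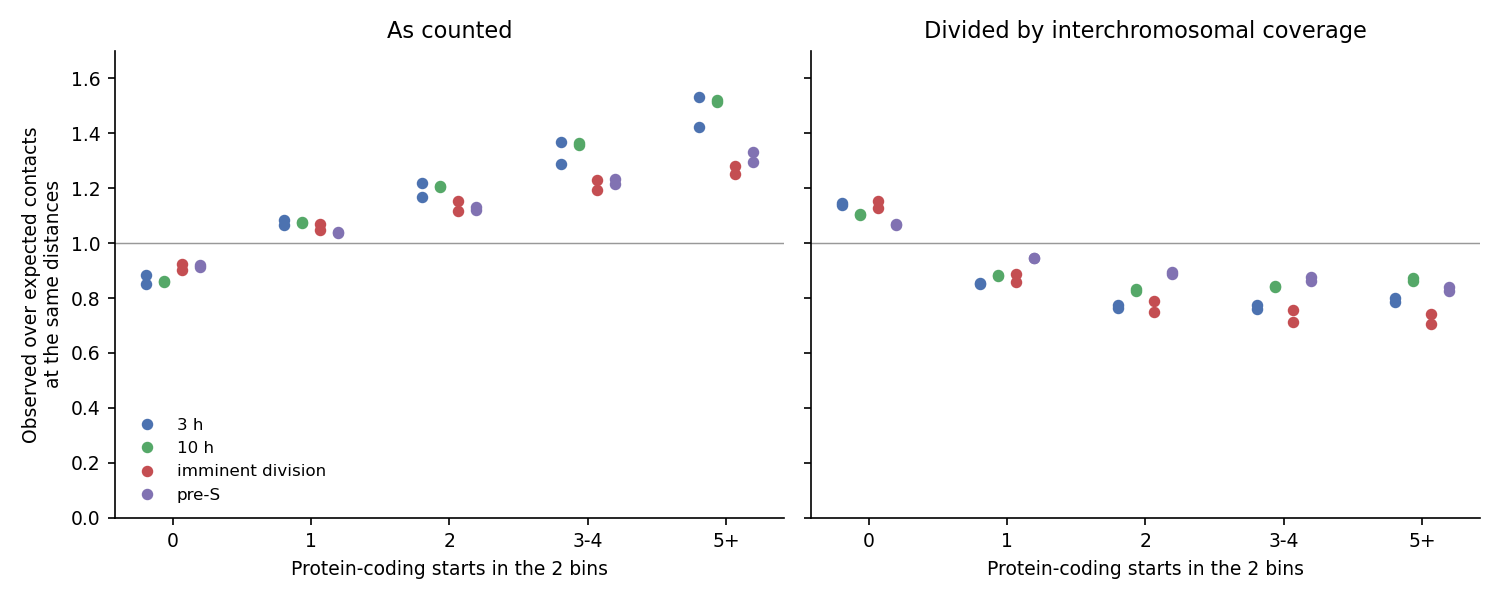
Observed over expected contacts at 2 to 20 bins by the number of protein-coding starts in the 2 bins, by group, as counted (left) and divided by the interchromosomal coverage of the bins (right); points are libraries. Before adjustment pairs with 5 or more starts stand at 1.48, 1.52, 1.26 and 1.31 on average at 3 h, 10 h, imminent division and pre-S, and after it they lie below 1 in all 8 libraries.

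Single bin pairs were tested with edgeR's quasi-likelihood test on read-pair counts with distance- and abundance-dependent loess offsets, which remove any change common to pairs of like abundance. What remains is the change of a pair relative to others like it. Of 1457216 bin pairs deep enough to test, 788744 lay in the range (86.8% of all in the range), and adjustment was over the whole 1457216. From 3 h to 10 h 7 pairs in the range were stronger and 1 weaker at 5%, where 0.000618% of all tested pairs were called, 0.000549% stronger and 6.86e-05% weaker. At an unadjusted p under 0.05 there were 50196. DESeq2 called 0, coverage added to the offsets gave 194, and without the second 3 h library 1 pair was called, a weaker one.

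From 10 h to imminent division 7562 pairs in the range were stronger and 12289 weaker, where 2.01% of all tested pairs were called, 0.691% stronger and 1.32% weaker. Stronger pairs made up 38.1% of the calls here 53.4% with TMM factors and 54.6% with DESeq2 size factors in place of loess offsets, so which direction held more calls rested on the scaling. The median difference was 0.08 on the log2 scale in the range and 0.03 over all pairs tested. DESeq2 called 198 pairs in the range in this contrast, and without the second 10 h library edgeR called 2084. Loess offsets reduce the gain common to the range, so these counts hold it only in part.

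The pairs called stronger and weaker before division were of different kinds. Stronger pairs lay a median of 6 bins apart and 55% held no gene start, near the 57.9% of tested pairs. Weaker pairs lay a median of 12 bins apart with a mean of 2.22 starts, and 14.0% held 5 or more starts, against 2.72% of tested pairs. Weaker pairs also had a higher median coverage (1.34 against 0.975 of tested pairs) and GC content (46.7 against 41.5%), and the part of coverage in their gene density was not tested. Stronger calls went from 2.26% of pairs 2 bins apart to 0.228% of pairs 20 bins apart, and weaker calls from 0.775 to 2.31%. This trend with distance is also relative to pairs of like abundance. When strata were scaled to the autosomal cis total, all 19 autosomes were higher at both distances, with a median log2 difference of 0.28 at each. Of pairs with no start 0.911% were stronger and 0.641% weaker, while of pairs with 5 or more starts 0.751% were stronger and 8.04% weaker. The median log2 difference in these 2 classes was 0.15 and −0.21 with loess offsets. Scaled to the autosomal cis total instead, mean contact density over all kept pairs rose in both classes. From 10 h to imminent division it went from 0.225 to 0.304 (relative units) without a start, and from 0.411 to 0.437 with 5 or more. The fall of gene-dense pairs is thus relative to pairs of like abundance, and its sign rests on the scaling.

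**Figure D4:**
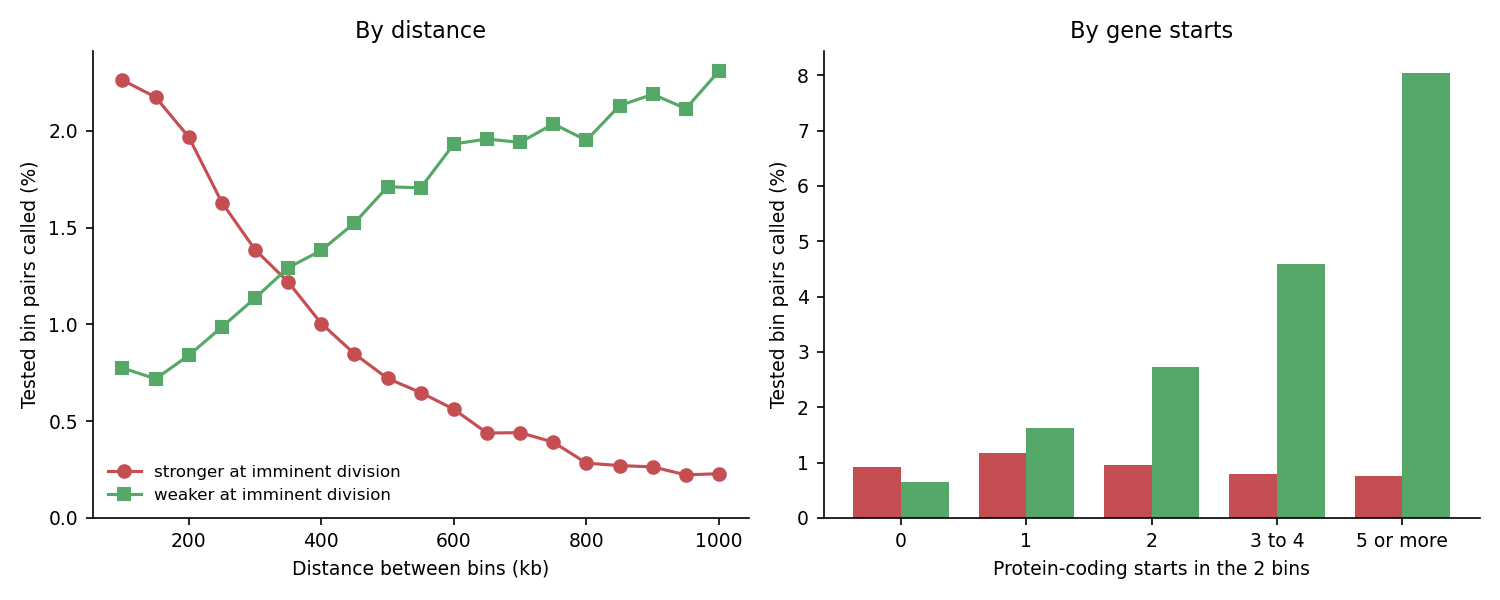
Percentage of tested bin pairs called stronger or weaker at a false discovery rate of 5% from 10 h to imminent division, against distance in kb (left) and by number of protein-coding starts in the 2 bins (right). Stronger calls fall from 2.26% at 100 kb to 0.228% at 1000 kb, and weaker calls rise from 0.775 to 2.31%. Calls are relative to pairs of like abundance (loess offsets).

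Among gains before division that touch a gene, the pair with the smallest p had both ends in Bicd1, which encodes an adaptor of the dynein motor, 3 bins apart on autosome 6 (149399855 to 149450039 and 149549374 to 149586000). Its loess-normalized counts were 46.2 and 45.6 at 3 h, 34.5 and 38.1 at 10 h, 93.0 and 103.9 in imminent division cells, and 73.7 and 67.5 in pre-S. Both 33 h groups lay above both earlier groups. Named pairs here and below were picked so that the libraries of the compared groups do not overlap. That separation is therefore no added support. The log2 difference from 10 h was 1.43 (edgeR adjusted p = 1.285e-08).

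A pair 2 bins apart on autosome 11 joined the start of Kif3a, a kinesin subunit, and a bin within Rad50, a component of the MRN complex that acts at DNA breaks. Its normalized counts were 118.4 and 129.2 at 3 h, 124.4 and 112.4 at 10 h, 216.7 and 221.0 in imminent division cells, and 149.5 and 188.9 in pre-S. The imminent division libraries were the highest (log2 0.89 against 10 h, edgeR adjusted p = 2.7e-08). The contact of the Chia1 and Chil4 bins on autosome 3, which hold genes of the chitinase family, rose by 0.68 (edgeR adjusted p = 4.04e-08).

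The losses with the smallest p among pairs that touch a gene spanned longer distances. On autosome 5 the bin of Myl2, a myosin light chain, and the bin of P2rx7, an ATP-gated ion channel, lay 10 bins apart. Their normalized counts were 117.7 and 86.5 at 3 h, 122.5 and 137.7 at 10 h, 43.6 and 48.3 in imminent division cells, and 80.4 and 88.2 in pre-S. The imminent division libraries were the lowest, at −1.502 against 10 h on the log2 scale (edgeR adjusted p = 2.993e-13). On autosome 7, the bin that holds the starts of Oscar, Ndufa3, Tfpt, Prpf31 and Cnot3 lost contact with the Eps8l1 bin 17 bins away (−1.47). On autosome 8, bins within Ido2, an enzyme of tryptophan breakdown, and Tacc1 lost contact over 14 bins (−1.41).

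The few calls between 3 h and 10 h included Bank1, a B cell scaffold protein. A bin within it and a bin 3 bins away on autosome 3 had normalized counts of 49.2 and 40.6 at 3 h and 77.0 and 109.4 at 10 h (log2 1.12, edgeR adjusted p = 0.01588). The contact between the Ephx1 and Ccdc121 bins on autosome 1, 11 bins apart, went from 38.2 and 25.8 to 80.5 and 86.0 (log2 1.47, edgeR adjusted p = 0.0004329), and was 33.4 and 38.5 again in imminent division cells. The weaker pair joined bins within Wdpcp and Otx1 on autosome 11, at 96.5 and 108.6 at 3 h, 48.5 and 50.01 at 10 h, and 95.8 and 90.2 in imminent division cells.

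In pre-S against 10 h 1467 pairs in the range were stronger and 2793 weaker, where 0.594% of all tested pairs were called, 0.339% stronger and 0.255% weaker. Stronger pairs were 34.4% of the calls, and 46.6% with coverage added to the offsets. DESeq2 called 87, and leaving out any library of these groups gave 376 to 1001 calls. A stretch of autosome 15 stood out. Between 55 and 60 Mb 180 of 1430 tested pairs were weaker, and 12.9% were called in either direction, against 1.42% elsewhere on autosome 15 (70 stronger, 398 weaker) and 0.478% on the other 18 autosomes. Among pairs that touch a gene and whose groups do not overlap, the smallest p was that of the pair joining the bin of Atad2 and Wdyhv1 (58100087 to 58149987) to that of Fbxo32, a muscle ubiquitin ligase gene (58200167 to 58250008). It received 103 and 125 read pairs at 10 h, 160 and 214 in imminent division cells, and 9 and 14 in pre-S, at −3.01 against 10 h (edgeR adjusted p = 2e-23). Leaving autosome 15 out of the tally, a choice made after seeing the data, left 3607 calls in this contrast. Pre-S cells came from another mouse line, and line and cell cycle state cannot be told apart here. Whether the DNA of this stretch is arranged differently in that line was not tested, so these values, and those of the Atad2 bin and pair below, may not be changes in folding. From 10 h to imminent division, a contrast without pre-S libraries, 5.52% of pairs in the stretch were called (13 stronger, 66 weaker). Elsewhere on autosome 15 it was 2.60%, and on the other 18 autosomes 2.51%.

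Pairs weaker in pre-S on other autosomes included B cell genes. A bin within Pax5, the factor that defines the B lineage, and the bin of Grhpr, 7 bins apart on autosome 4, had normalized counts of 140.5 and 165.0 at 3 h, 168.8 and 167.3 at 10 h, 92.2 and 91.7 in imminent division cells, and 76.2 and 98.7 in pre-S. Both 33 h groups lay below both earlier groups, at −0.96 for pre-S and −0.87 for imminent division against 10 h (edgeR adjusted p = 5.901e-06 and 1.042e-06). In the MHC class II region of autosome 17 the contact of the H2-Oa and H2-Eb1 bins was also weaker in pre-S, at −1.05 (edgeR adjusted p = 1.767e-05). It was also called weaker in imminent division cells against 10 h (−0.84). Stronger pairs in pre-S joined Hspa12a and Vax1 on autosome 19 (0.96), bins at Azi2 on autosome 9 (0.99), and Ptch1, the Hedgehog receptor, and Ercc6l2 on autosome 13 (1.09). From 10 h to imminent division these pairs were also called stronger, at 0.60, 0.73 and 1.13 in the same order.

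Both groups at 33 h were also compared directly. Imminent division had 1653 stronger and 775 weaker pairs than pre-S in the range, where 0.360% of all tested pairs were called, 0.146% stronger and 0.214% weaker. Stronger pairs were 68.1% of the calls, 82.7% with TMM factors, 82.5% with size factors and 48.8% with coverage added to the offsets. DESeq2 called 125, and edgeR called 405 and 620 without the first and second pre-S library and 696 without the second imminent division library. On the 18 autosomes other than 15 the counts were 1082 stronger and 726 weaker, and 206 of the stronger pairs lay between 55 and 60 Mb of autosome 15. Beside the Atad2 to Fbxo32 pair (3.01), stronger pairs joined Vmn1r223 and Abt1 on autosome 13 (1.503) and Elp3 and Scara5 on autosome 14 (0.91). Over all contrasts 764814 of the 788744 tested pairs in the range were called in none and 1 was called in all 4.

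Finally, each bin was described by the share of its own cis contacts that lay 2 to 20 bins away. These shares were tested with edgeR on 47316 bins as the change relative to the change of the whole genome, so "higher" here means a larger rise than the genome-wide one. Between 10 h and imminent division 21812 bins were higher and 11502 lower, or 46.1 and 24.3% of all tested and 70.4% together. Without that centering 44942 rose and 280 fell, with a median log2 change of 0.42, and with contacts scaled by TMM factors in place of each bin's cis total 10396 were higher and 12592 lower. The corresponding called shares were 7.58% from 3 h to 10 h (1998 bins or 4.22% higher, 1589 or 3.36% lower), 25.2% for pre-S against 10 h (8775 or 18.5% higher, 3155 or 6.67% lower) and 49.1% for imminent division against pre-S (11397 or 24.1% higher, 11836 or 25.0% lower). With TMM factors these 3 contrasts had 13 higher and 15 lower, 11658 and 13831, and 749 and 284, so their directions rest on the scaling. Without centering they had 12305 higher and 250 lower, 21071 and 1099, and 45067 and 23. Without the second 3 h library 438 bins were called from 3 h to 10 h.

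On the log2 scale, bins poor in these contacts at 3 h gained most before division, while in percentage points the gain was not largest in the lowest decile (18.95 to 26.5% in the fourth from the bottom). The decile of bins with the lowest 3 h shares had pooled shares of 12.4% at 3 h, 13.4% at 10 h, 20.5% in imminent division cells and 15.01% in pre-S. The decile with the highest had 39.7, 41.4, 44.2 and 41.1%. From 10 h to imminent division 4174 of 4732 bins in the lowest decile were higher than the genome-wide change and 43 lower, while 3 were higher and 4490 lower in the highest decile. The bins were ranked on the 3 h libraries, which this contrast does not use. The range between the extremes thus narrowed from 10 h to imminent division.

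Mean starts per bin were 0.369 in the lowest decile, 0.231 in the third from the bottom and 0.810 in the highest, so density did not follow the ordering throughout. Bins with no protein-coding start had a pooled share of 22.0% at 3 h, 23.2% at 10 h, 30.1% in imminent division cells and 24.4% in pre-S, and bins with 5 or more starts 30.9, 33.2, 36.4 and 32.9%. Against the genome-wide change from 10 h to imminent division, 17992 of 34023 bins without a start were higher and 5912 lower, and 18 of 231 gene-dense bins were higher and 174 lower.

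**Figure D5:**
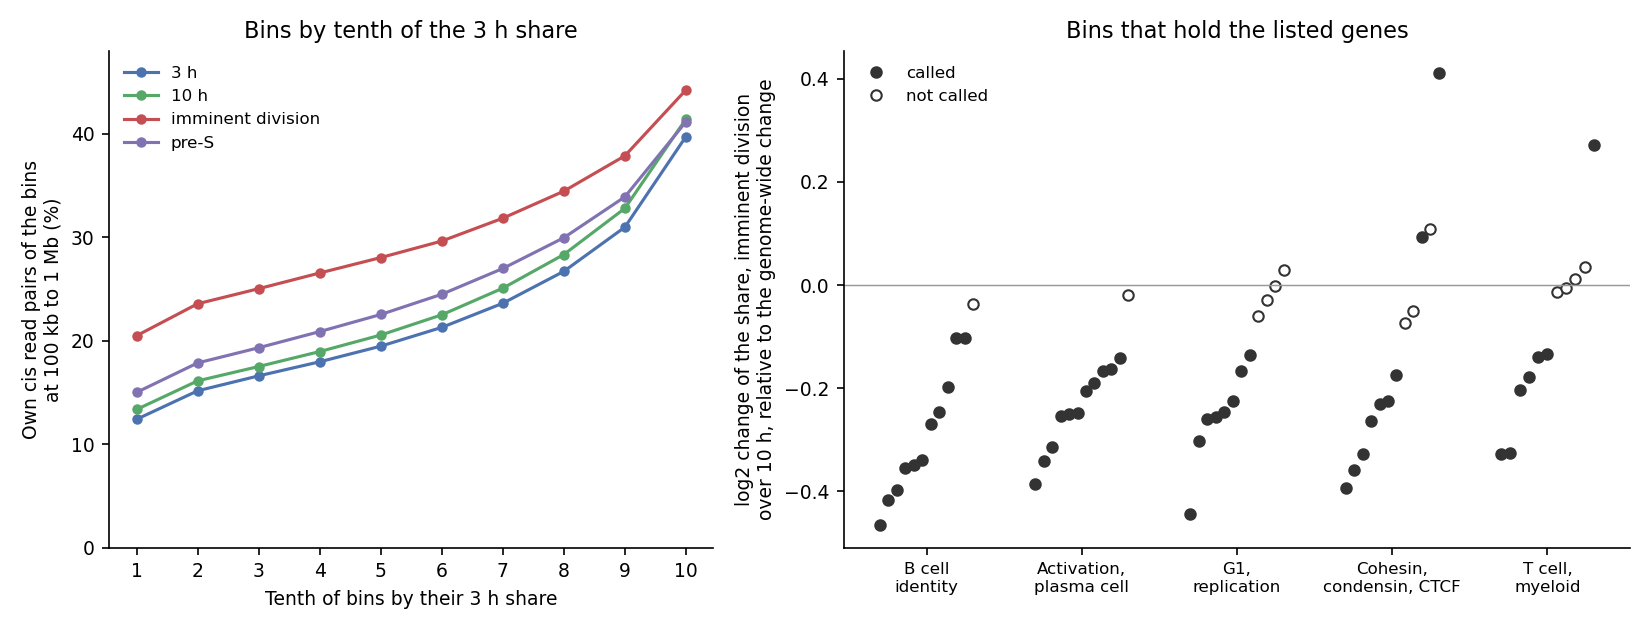
Left, pooled percentage of the cis contacts of bins that lie 2 to 20 bins away, for deciles of bins ordered by their 3 h share, by group; right, log2 change of that share from 10 h to imminent division relative to the genome-wide change for the bins of the listed genes (filled where called at 5%). The lowest decile reaches 20.5% and the highest 44.2% in imminent division cells, and most gene bins lie below 0 with Smc2 highest at 0.41.

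Most bins of B cell genes rose less than the genome before division. Of 12 B cell identity genes 0 were in a higher bin and 11 in a lower bin from 10 h to imminent division, with a median of −0.30. Of 12 activation and plasma cell genes 0 were higher and 11 lower (median −0.23). Over all bins 46.1% were called higher and 24.3% lower, with a median of 0.08. Among bins with starts more were lower, 36.8% of those with 1 start and 75.3% of those with 5 or more. In the decile with the highest 3 h shares 4490 of 4732 bins were lower. The lists here and below were not compared with bins of like gene density or share. Their counts may therefore not be particular to their genes. These directions are relative to the genome. Without centering 6 of the identity genes were higher and 3 lower (median 0.03), and 9 of the activation genes were higher and 0 lower (median 0.11), beside 44942 of 47316 bins higher and 280 lower (median 0.42). Most of these genes thus changed sign with the centering, Bcl6, Irf4, Prdm1, Myc and Batf among them. Changes below are on the centered log2 scale, and those called higher or lower passed edgeR's test at 5% over all bins.

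Ebf1 encodes an early B lineage factor. The share in its bin was 53.8 and 55.1% at 3 h, 55.9 and 54.9% at 10 h, 50.6 and 50.7% in imminent division cells, and 51.5 and 50.2% in pre-S. Both 33 h groups lay below both earlier ones, and relative to the genome the change before division was −0.47. Its fall was also called without centering (−0.13). Foxo1, a forkhead factor needed for B cell development, had the highest shares of the named lineage genes, at 59.0 and 61.8% at 3 h, 60.7 and 60.3% at 10 h, 57.2 and 58.7% in imminent division cells, and 57.1 and 56.4% in pre-S (−0.40).

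The Pax5 bin stood at 42.3 and 42.5% at 3 h, 45.0 and 45.3% at 10 h, 44.0 and 41.7% in imminent division cells, and 42.4 and 41.4% in pre-S. It was −0.42 relative to the genome before division and −0.17 in pre-S against 10 h. Bcl6, the repressor that directs germinal center B cells, went the other way in absolute terms, from 45.0 and 43.4% at 10 h to 51.1 and 52.6% in imminent division cells. That rise was nevertheless smaller than the genome-wide one (−0.10). Ikzf1, which encodes Ikaros, had shares of 34.7 and 33.0% at 10 h and 34.0 and 32.8% in imminent division cells, with overlapping libraries and a relative change of −0.36.

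Among activation genes, Cd69, the early activation marker, stood at 48.7 and 46.2% at 10 h and at 46.1 and 45.4% in imminent division cells (−0.39). The bin of Myc, which drives growth of activated B cells, stayed within 53.8 to 57.9% in all 8 libraries (−0.31 before division). Prdm1, the plasma cell regulator Blimp-1, rose in absolute terms from 35.7 and 36.4% at 3 h to 40.9 and 38.7% at 10 h and 44.0 and 45.4% in imminent division cells, with −0.16 relative to the genome. Irf4, a factor of both activation and plasma cell differentiation, had 34.4 and 34.9% at 3 h and 32.3 and 31.7% at 10 h, and was lower relative to the genome in that step (−0.20).

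The other lists contained exceptions. Of 12 G1 and replication genes 0 were higher and 8 lower before division (median −0.20), where over all bins 46.1% were higher and 24.3% lower. Without centering 10 were higher and 1 lower (median 0.14), where 44942 of 47316 bins were higher (median 0.42). Mcm6, a subunit of the replicative helicase, was at −0.44 on the centered scale. Ccne1, which encodes cyclin E1, was at 14.4 and 14.5% at 10 h, 18.4 and 18.8% in imminent division cells and 16.7 and 17.5% in pre-S, and was higher in pre-S relative to the genome (0.18). Of 12 cohesin, condensin and CTCF genes 2 were higher and 7 lower (median −0.20), against the same 46.1 and 24.3% over all bins, and without centering 8 were higher and 0 lower (median 0.14 against 0.42). Ctcf itself was lower, at 39.8 and 41.0% at 10 h and 39.5 and 38.4% in imminent division cells (−0.39).

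The 2 higher bins were those of Smc2 and Rad21. Smc2, a condensin subunit, started from 10.97 and 11.3% at 3 h and 12.4 and 11.4% at 10 h, and reached 19.6 and 20.02% in imminent division cells and 14.7% in both pre-S libraries. Its relative change before division was 0.41, and it was also higher in pre-S against 10 h (0.25). Rad21, the cohesin kleisin, went from 19.3 and 19.98% at 10 h to 26.7 and 26.4% in imminent division cells (0.09), and Wapl, the cohesin release factor, from 14.8 and 14.9% to 21.6 and 19.1% (0.11, which did not pass).

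Of 11 T cell and myeloid genes tested, 1 was higher and 6 lower before division (median −0.13), again beside 46.1 and 24.3% over all bins, and without centering 9 were higher and 0 lower (median 0.20 against 0.42). Bcl11b, a T cell factor, was the higher bin, going from 13.2 and 12.6% at 10 h to 20.7 and 18.7% in imminent division cells (0.27). Cd3e, part of the T cell receptor complex, had shares of 45.3 and 46.5% at 10 h and 47.1 and 45.5% in imminent division cells (−0.33). Without centering the Cd3e bin was at 0.01.

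The bins named next are examples from the 5 with the smallest p in each direction among bins that hold a protein-coding start, at most 1 per autosome. The bin of Olfr763, an olfactory receptor gene, went from 5.84 and 6.14% to 17.0 and 16.7% from 10 h to imminent division, and was 8.69 and 8.30% in pre-S (1.15 relative to the genome). Trp63, a p53 family gene of epithelia, went from 15.3 and 14.8% to 29.6 and 30.2%, and was 19.8 and 19.4% in pre-S (0.66). On the lower side, the bin of Zfp36l1, an RNA-binding protein that restrains B cell proliferation, went from 67.5 and 66.5% to 63.2 and 63.6% (−0.42). Nup160, a nuclear pore component, went from 35.6 and 36.3% to 32.9 and 31.5% and was 30.9 and 31.2% in pre-S (−0.50 before division).

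Further examples came from the corresponding 5 bins of the other contrasts. From 3 h to 10 h the bin of Kcnj12, a potassium channel gene, rose from 22.4 and 23.1% to 29.5 and 31.2%, and reached 39.5 and 38.8% in imminent division cells. The bin of Mcur1, a mitochondrial calcium uptake regulator, went from 43.8 and 44.3% at 3 h to 38.9 and 37.9% at 10 h. In pre-S the bin of Atad2 and Wdyhv1 on autosome 15 was lower than at 10 h, at a mean of 20.5 against 31.3%. The bin of Bhlha9 and Trarg1 on autosome 11 was higher, at 42.8 and 41.5% against 31.7 and 31.2%. The bin of Cxcl12, which encodes a chemokine, was at 27.6% in both pre-S libraries against 20.6 and 20.5% at 10 h. The bin of Gmnn, which encodes geminin, the inhibitor of replication licensing, was lower in imminent division cells than in pre-S, at 35.5 and 33.3% against 37.1 and 36.1% (−0.37 relative to the genome).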

How the data were processed

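The authors aligned reads to mm10 with diffHic and deposited, per library, read-pair counts for pairs of 50 kb bins without coordinates, which were rebuilt from MboI fragments (GATC sites) by their midpoints. Bins with over 10% undetermined bases, or a coverage more than 4 times above or below the median, were left out. Naive, expanded and plasmablast cells were not analysed here.

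Strata were tested with limma 3.58.1 (pseudocount 0.5). Bins (at least 200 contacts in the range) and bin pairs (summed count at least 10, abundance at least 4-fold over interchromosomal background) were tested with edgeR 4.0.16, with DESeq2 1.42.0 as an alternative, in R 4.3.3. Shares, slopes and ratios were compared with exact two-sided permutation tests over all 4 groups. Named bin pairs (touching a protein-coding gene, libraries of the groups not overlapping) and named bins (holding a protein-coding start) have the smallest p of their kind per contrast and direction, at most 1 per autosome, and named genes come from lists of 12. None lies on autosome 18, and Cd14 was left out for this reason. The members and lists were chosen with earlier results of these data known.

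On simulated data limma recovered 100% of 200 changed strata for imminent division versus 10 h. edgeR recovered 99% of 1.3-fold and 14% of 1.1-fold changes among 47316 bins, and 39% of 2.5-fold and 4% of 1.5-fold changes among 100000 bin pairs. Of the calls, 5.21% were false for strata, 4.24% for bins and 0% for bin pairs. Each simulation drew its values independently at a fixed spread and changed only 200 of them. In the data far more strata and bins were called, so these rates may not hold for the real tests. At the simulated spread most 1.5-fold and most 2.5-fold changes of single bin pairs were missed.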

Additional observations from a re-analysis of the deposited data

How the results depend on the processing

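Of 226 alternative values for the main results 162 kept the outcome of their test or a count of calls within 1.5 times. Another 7 lost and 4 gained the call, 42 counts moved further and 11 turned direction. Of 280 for named genes 257 kept their outcome, 10 lost and 4 gained the call, and 9 changed sign. Direction was compared only for counts and for values that passed in the main setting. The decay slope did not pass, so its turn when weighted by 1 over distance is not among these. With that weight imminent division was flatter than 10 h (−0.969 against −0.985), and in the main setting steeper (−1.02 against −1.01). The replicate numbers did not pair the libraries (correlations of deviations −0.051 to 0.013). A replicate block raised the adjusted exact permutation p of the share and of the slope difference to 0.0833 each. It changed no other call and moved no count by over 1.5 times. Both measures stood at an exact permutation p of 0.0417 before adjustment, the smallest that the block allows, so the number of libraries sets these values. The decay slope passed over 3 to 20 bins (0.0254), the gene-dense ratio passed when coverage-adjusted (0.0381), and the slope difference did not with starts of all genes (0.0508). Leaving out 1 library gave adjusted exact p of 0.0190 to 0.0381 for the share, 0.0254 to 0.152 for the slope, 0.0381 to 0.152 for the ratio and 0.0190 to 0.0571 for the slope difference, which was lost without 3 h replicate 1, 10 h replicate 2, imminent division replicate 1 or pre-S replicate 1. The slope passed without 10 h replicate 1, and the ratio without 3 h replicate 1.

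Values below run in the order 3 h to 10 h, 10 h to imminent division, 10 h to pre-S, and last imminent division relative to pre-S. Strata scaled to the total at 2 to 20 bins gave 50, 200, 158 and 222 calls, and leaving out 1 library gave 279 to 334, 361 to 361, 202 to 254 and 361 to 361. For bin pairs DESeq2 called 0, 198, 87 and 125, and a 2-fold abundance filter gave 5, 7396, 1363 and 1037. Coverage in the offsets gave 194 and 37234 in the first pair of contrasts and 15611 in the last, there with more weaker than stronger. TMM factors gave 32562 in the second contrast, with more stronger, and 6829 in the one after it, and size factors 32721, again with more stronger, and 6608. Leaving out 1 library gave 1 to 22, 2084 to 23484, 376 to 5449 and 405 to 3179 bin pairs. Without 3 h replicate 2 the 1 pair called in the first contrast was weaker, and either imminent division library left out gave 22. Between 10 h and imminent division the count was 5564 without 10 h replicate 1, 2084 without 10 h replicate 2, 6640 without imminent division replicate 1 and 9522 without replicate 2. Between 10 h and pre-S the count was 901 and 707 without 10 h replicates 1 and 2, and 376 and 1001 without pre-S replicates 1 and 2. The last contrast gave 696 without imminent division replicate 2, and 405 and 620 without pre-S replicates 1 and 2.

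For bins, TMM factors in place of each bin's cis total gave 28, 22988, 25489 and 1033 calls, with the larger direction turned in each. Without centering there were 12555 in the first contrast, 22170 from 10 h to pre-S and 45090 in the last, nearly all higher, and DESeq2 called 354, 3018 and 10206 there. Leaving out 1 library gave 438 to 3589, 26747 to 33315, 6343 to 11930 and 15286 to 23233, the lowest without 3 h replicate 2, 10 h replicate 2 and, in both contrasts with pre-S, pre-S replicate 1. The first contrast had 2217 and 1286 without 10 h replicates 1 and 2, that of 10 h to pre-S 6384 without 10 h replicate 2 and 7500 without pre-S replicate 2, and the last, without imminent division replicate 2, had 20252 with more higher than lower. From 10 h to imminent division without centering Bcl6 was at 0.23, Irf4 0.0838, Prdm1 0.17, Myc 0.0226, Batf 0.15, Ccnd2 0.0821, Cd3e 0.0101 and Lyz2 0.13, and with TMM factors Prdm1 was at 0.0005. The own-autosome scaling and the tallies without autosome 15, from the same fits, were chosen after seeing the data. They moved no total of calls by over 1.5 times, but without autosome 15 the stronger pairs of the last contrast went from 1653 to 1082, and own-autosome scaling turned the 6 lower strata of autosome 11 in pre-S. Apart from the constructions named, the cause was not tested. How depth limits the bin pair test was not compared with other limits.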
